A study of Homo sapiens with 6 samples.

Results

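The autophagy and lysosome genes were 39 genes, taken by gene name, whose transcripts were compared between NCI-H460 cells with and without a knockdown of PRMT5. All 39 names matched a row among the 58825 genes in the data, and all 39 were among the 20295 genes with enough counts to be tested. 27 of them build the autophagosome, 10 belong to the lysosome, and 2, TFEB and TFE3, are transcription factors that were put in neither arm. In edgeR none of the 39 passed an adjusted p of 0.05 (DESeq2 called 1, ULK1), and the transcript levels of 35 of them were bounded, by a 95% interval, to within a 1.5-fold difference either way. The smallest unadjusted p-values were those of the kinase ULK1, whose fitted level was 23.1% higher in the knockdown cells, and of its partner RB1CC1, 25.4% higher.

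Autophagy is the process by which a cell encloses its own proteins and organelles in a double membrane, the autophagosome, and hands them to the lysosome for digestion. A kinase complex starts it, a lipid kinase marks the site, lipid transfer proteins feed the growing membrane, and a conjugation system fixes ATG8 family proteins to it, where cargo receptors dock. The lysosome is the acidic compartment in which hydrolases break the cargo down, and mTORC1 on its surface restrains both autophagy and the transcription factors of lysosomal genes when nutrients are plentiful.

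NCI-H460 is an established human lung cancer cell line, grown in RPMI-1640 medium. Cells of both groups had been infected with lentivirus. It carried a control shRNA in the control group (NC-shRNA, n = 3 libraries) or an shRNA against PRMT5 in the knockdown group (PRMT5-shRNA, n = 3 libraries). Puromycin was then used to select the knockdown cells. The labels call the control libraries GFPkd, while the methods give a control shRNA sequence and name no target for it. PRMT5 is an arginine methyltransferase that symmetrically dimethylates histones and splicing proteins. 3 hairpins were designed against human PRMT5, and the labels do not say which of them these libraries carry, so an effect of the hairpin itself and one of PRMT5 loss cannot be told apart. The study speaks of biological replicates, and the labels do not say whether libraries of a group came from separate infections, so p-values measure the spread between these libraries.

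Total estimated counts ranged from 53531257 to 70518401 per library. PRMT5 itself was at 143, 127 and 128 CPM with NC-shRNA and 45.8, 45.6 and 38.3 CPM with PRMT5-shRNA (CPM, counts scaled to library size), with a log2 fold change of -1.62 (adjusted p = 0.00630, edgeR quasi-likelihood test). Epithelial markers summed to 1753 to 1879 CPM in the NC-shRNA libraries and 1523 to 1649.7 CPM in the PRMT5-shRNA libraries, without overlap, and 1 of 6 tested was lower (KRT8, log2 fold change -0.23, unadjusted p = 0.00826, edgeR). Markers of lung adenocarcinoma, the label's own term, summed to between 0.114 and 0.852 CPM, with SFTPA1 and SFTPA2 at 0 in every library. Summed endothelial markers were at 10.4 to 11.7 CPM in the NC-shRNA libraries and 15.3 to 19.5 CPM in the PRMT5-shRNA libraries, and 4 of the 5 tested had an unadjusted p under 0.05, all higher, with VWF and KDR at 0 in all 3 NC-shRNA libraries. VWF also passed after adjustment (adjusted p = 0.0341, edgeR), at 128, 105 and 122 estimated counts with PRMT5-shRNA. Fibroblast markers summed to 117 to 142 and 109.6 to 132 CPM (2 of 5 tested higher, COL1A2 and PDGFRA at 0 in every library), macrophage markers to 5.04 to 6.04 and 4.67 to 6.72 CPM (0 of 5 tested called, CD163 and AIF1 at 0), and lymphocyte markers, without overlap, to 0.805 to 1.15 and 1.58 to 1.70 CPM (0 of 3 tested called, CD3D, CD3E and MS4A1 at 0). The part of these markers in the results below was not tested. In bulk RNA, fewer cells of a type and less RNA per cell cannot be told apart, and neither protein nor autophagic flux was measured.

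The comparison asked whether transcripts of either arm of the pathway differed when PRMT5 was reduced. Each gene was tested with edgeR's quasi-likelihood test over the 20295 genes. No member passed an adjusted p of 0.05, where 0.0493% of all genes tested passed as higher and 0.0197% as lower, and the smallest adjusted p of a member was 0.184, that of ULK1. At the looser unadjusted p under 0.05, 4 members were higher, namely ULK1, RB1CC1, ATG2B and TFE3, and 0 were lower. The same threshold called 6.54% of all genes as higher and 6.29% as lower, beside 4 of 39 members (10.3%) and 0 of 39. Of the 10487 genes with a mean log2 CPM over 3, a level that all 39 members exceeded, it called 770 as higher and 1003 as lower. In that background lower calls were thus the more frequent, whereas no member was called lower. The members' counts are small, and no test of the list was made. With DESeq2, 1 member, ULK1, passed an adjusted p of 0.05, beside 1.81% of genes called higher and 1.36% called lower by that test.

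**Figure D1:**
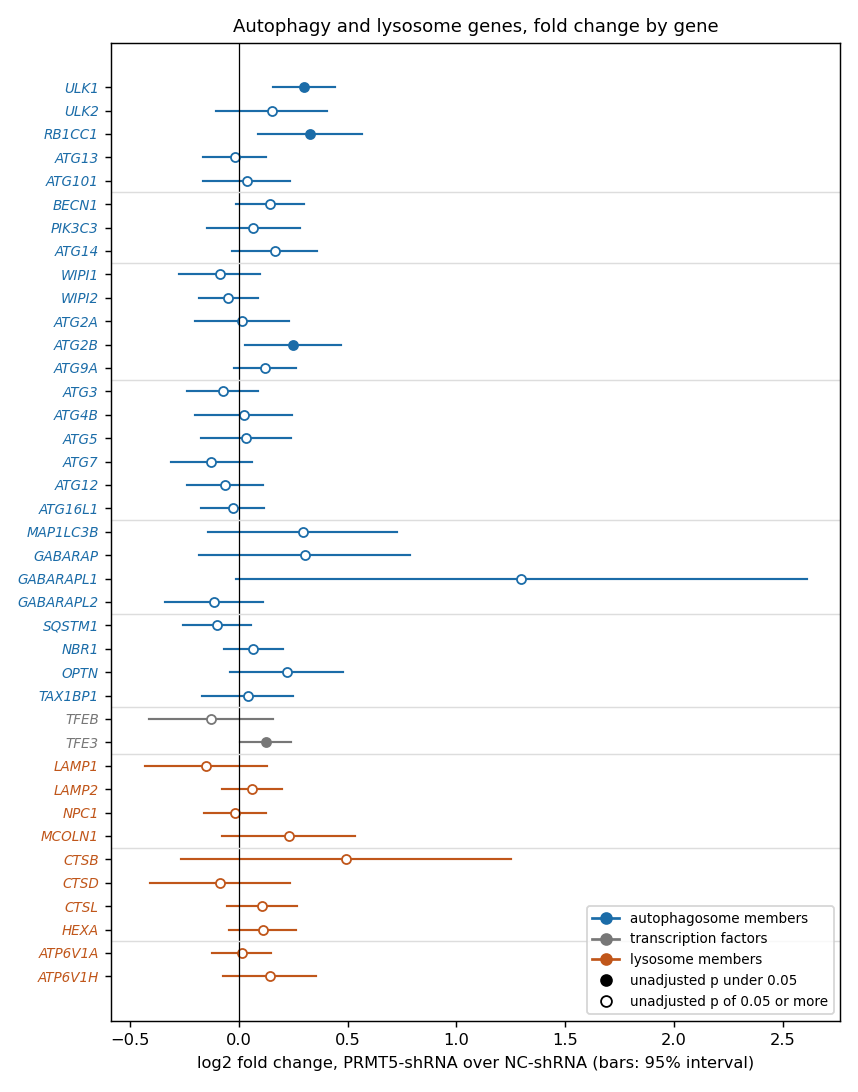
Log2 fold change of each of the 39 genes, PRMT5-shRNA over NC-shRNA, with bars for the 95% interval from edgeR (3 libraries a group). Filled points mark an unadjusted p under 0.05 (ULK1, RB1CC1, ATG2B and TFE3), grey lines separate the roles, and the interval of GABARAPL1 is the widest, from -0.015 to 2.61.

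A second description used only the order of the 6 libraries. In 10 members every PRMT5-shRNA library lay above every NC-shRNA library, and in 2 every one lay below. The 10 were ULK1, RB1CC1, BECN1, ATG14, ATG2B, ATG9A, MAP1LC3B, GABARAPL1, OPTN and TFE3, and the 2 were WIPI1 and ATG7. That is 25.6% and 5.13% of members, beside 11.0% and 10.7% of all genes tested, a larger share above and a smaller share below than the background. Of the 10487 genes with a mean log2 CPM over 3, 1246 lay above in this way and 1578 below. For each of the 12 an exact two-sided permutation test of 3 against 3 libraries gave 0.10, the smallest p it can give. That value follows from picking genes whose groups do not overlap, so it adds nothing to the order itself. 9 of the 10 belonged to the autophagosome arm and 0 to the lysosome arm, but this division depended on the scale. In the deposited FPKM values (fragments scaled to transcript length and library size), 14 members were above and 1 below, and 3 lysosome genes (MCOLN1, CTSL and HEXA) were among the 14, beside 14.7% and 6.59% of all genes.

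**Figure D2:**
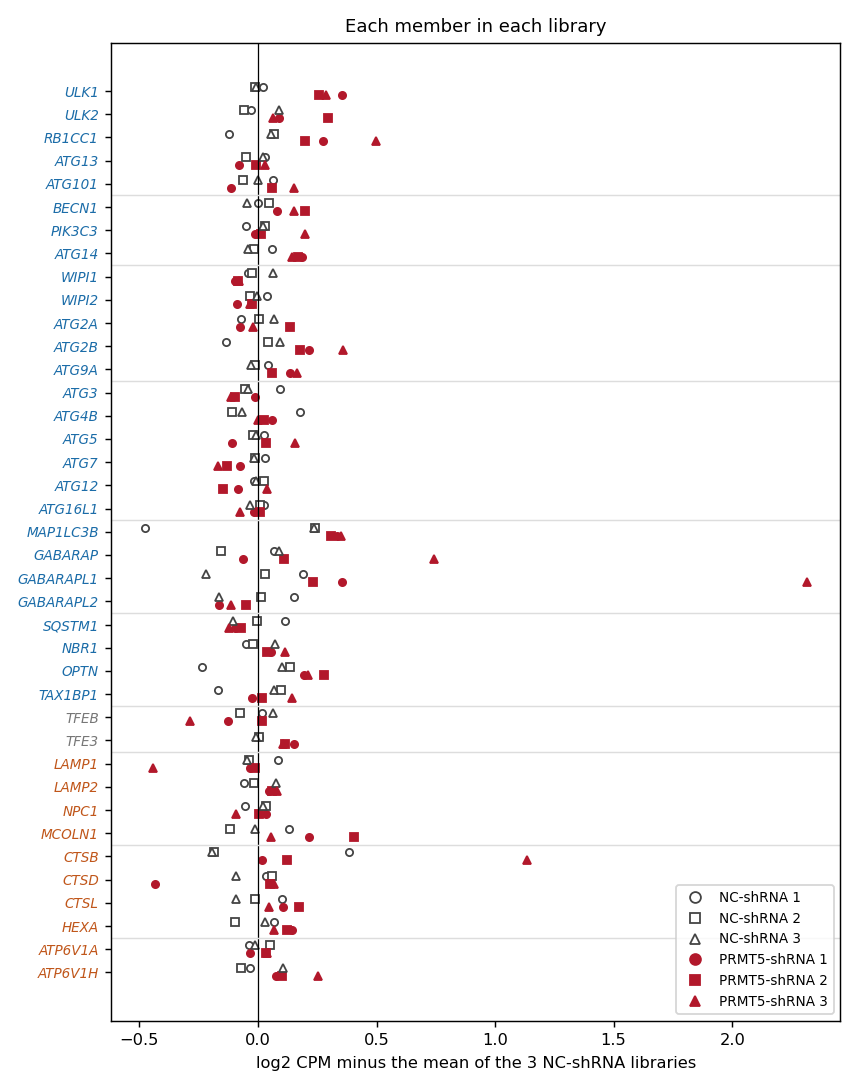
Log2 CPM of each gene in each library minus the mean of the 3 NC-shRNA libraries (open symbols NC-shRNA, filled red symbols PRMT5-shRNA, gene names in blue for the autophagosome, grey for the transcription factors and orange for the lysosome). Most points lie within 0.25 of the zero line, whereas single libraries stand far from the others in MAP1LC3B, GABARAP, GABARAPL1 and CTSB.

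The initiation complex is where mTORC1 and AMPK act on autophagy, and it held 2 of the 4 genes with a small unadjusted p. ULK1, the kinase that starts autophagosome formation (ENSG00000177169, chromosome 12, 131894651 to 131923167, plus strand of GRCh38), was at 50.03, 48.9 and 49.0 CPM with NC-shRNA and 63.0, 59.0 and 60.1 CPM with PRMT5-shRNA. Every knockdown library lay above every control by more than either group's own spread, and the log2 fold change was 0.30 (95% interval 0.16 to 0.44, unadjusted p = 0.00172, edgeR). Ranges given after a log2 fold change below are such 95% intervals. It overlaps the annotated gene AC131009.4 on its own strand. ULK2, its paralogue, was at 14.6, 14.3 and 15.9 CPM with NC-shRNA and 15.9, 18.3 and 15.6 CPM with PRMT5-shRNA, and these groups overlapped, with a log2 fold change of 0.15 (-0.10 to 0.41). Per length, ULK1 was the more abundant of the pair, at 5.42 ± 0.0723 FPKM against 1.27 ± 0.0896 FPKM in NC-shRNA cells (mean ± SD).

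RB1CC1, also called FIP200, is the scaffold that holds the complex together (ENSG00000023287, on chromosome 8). It was at 42.8, 48.8 and 48.4 CPM with NC-shRNA and 56.3, 53.4 and 65.7 CPM with PRMT5-shRNA. These did not overlap, and the log2 fold change was 0.33 (0.089 to 0.56, unadjusted p = 0.0142, adjusted p = 0.287, edgeR). The highest value was in PRMT5-shRNA 3, and without that library the log2 fold change was 0.23 (unadjusted p = 0.0426). In the other 3 subunits the groups overlapped. ATG101, which stabilizes ATG13 and was the most abundant member of the complex per length, was at 67.1, 61.4 and 64.2 CPM with NC-shRNA and 59.3, 66.9 and 71.3 CPM with PRMT5-shRNA, with the knockdown libraries on both sides of the controls. ATG13, the adaptor between the kinase and the scaffold, had a log2 fold change of -0.019 (-0.16 to 0.12).

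The next complex makes the lipid phosphatidylinositol 3-phosphate on the forming membrane, and its 3 members were all above 0 without passing the test. BECN1, the regulatory subunit known as Beclin 1, was at 46.8, 48.4 and 45.4 CPM with NC-shRNA and 49.5, 53.7 and 52.1 CPM with PRMT5-shRNA, a log2 fold change of 0.14 (-0.015 to 0.30). ATG14, the subunit that directs the complex to autophagy, was at 19.6, 18.6 and 18.2 CPM with NC-shRNA and 21.4, 21.1 and 20.8 CPM with PRMT5-shRNA, a log2 fold change of 0.17 (-0.03 to 0.36). In both genes the groups did not overlap, and both intervals reached just below 0. PIK3C3, the catalytic subunit VPS34, was close to even at 0.067 (-0.15 to 0.28), and its groups overlapped.

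The lipid-handling proteins read that mark and supply membrane. ATG2B, one of a pair of bridge-like lipid transfer proteins (ENSG00000066739, chromosome 14, 96279202 to 96363870, minus strand), was at 29.5, 33.4 and 34.6 CPM with NC-shRNA and 37.6, 36.7 and 41.5 CPM with PRMT5-shRNA. All 3 knockdown values exceeded the controls, with a log2 fold change of 0.25 (0.03 to 0.47, unadjusted p = 0.0313, edgeR). Its paralogue ATG2A was at 26.1, 27.6 and 28.8 CPM with NC-shRNA and 26.0, 30.2 and 27.1 CPM with PRMT5-shRNA, with overlapping groups and a log2 fold change of 0.014 (-0.20 to 0.23). ATG2B has the longest annotated transcript of the 39 genes, 13684 bases, and with a correction for transcript length its log2 fold change was 0.12 (unadjusted p = 0.110), so this call was lost. It was also lost in 4 of 6 edgeR fits that left out 1 library (unadjusted p from 0.0309 to 0.0964 over the 6 fits). ATG9A, the scramblase that spreads lipid between the leaflets, was at 76.2, 73.3 and 72.3 CPM with NC-shRNA and 81.2, 76.9 and 82.8 CPM with PRMT5-shRNA, separated between the groups by a small margin, with a log2 fold change of 0.12 (-0.023 to 0.26). The phosphoinositide readers WIPI1 and WIPI2 had log2 fold changes of -0.088 and -0.049. WIPI1 was 1 of the 2 members whose knockdown libraries all lay below the controls, at 23.2, 23.5 and 25.0 CPM with NC-shRNA and 22.3, 22.5 and 22.6 CPM with PRMT5-shRNA, a margin under 1 CPM.

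The conjugation machinery attaches ATG8 proteins to lipid, and here 4 of 6 members were below 0. ATG7, the E1-like enzyme that activates both ubiquitin-like systems, was at 23.9, 23.2 and 23.2 CPM with NC-shRNA and 22.2, 21.4 and 20.8 CPM with PRMT5-shRNA. Every knockdown library was below every control, yet the log2 fold change was only -0.13 (-0.31 to 0.06). ATG3, the E2-like enzyme for ATG8 proteins and the most abundant of the group per length (10.3 ± 0.410 FPKM in NC-shRNA cells), was at 80.2, 72.4 and 73.1 CPM with NC-shRNA and 74.5, 70.3 and 69.5 CPM with PRMT5-shRNA, and the groups overlapped. ATG5, ATG12 and ATG16L1, which together form the E3-like complex, had log2 fold changes of 0.032, -0.064 and -0.027, and the protease ATG4B had 0.022. The intervals of all 6 lay between -0.31 and 0.25.

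The ATG8 family coats the membrane and was the most uneven group between libraries. GABARAPL1 (ENSG00000139112, chromosome 12, 10212458 to 10223130, plus strand) was at 32.9, 29.4 and 24.8 CPM with NC-shRNA and 36.8, 33.8 and 144 CPM with PRMT5-shRNA. The value in PRMT5-shRNA 3 was 4.36 times the median of the other 5 libraries, whereas PRMT5-shRNA 1 and 2 lay just above the highest control. Its log2 fold change of 1.299, the largest of the 39, had an interval of -0.015 to 2.61 (unadjusted p = 0.0520, adjusted p = 0.394, edgeR), and without PRMT5-shRNA 3 it was 0.28 (unadjusted p = 0.0843). GABARAP, the most abundant ATG8 transcript per length (28.9 ± 2.73 FPKM in NC-shRNA cells), was at 70.4, 60.4 and 71.5 CPM with NC-shRNA and 64.4, 72.6 and 113 CPM with PRMT5-shRNA. Here too PRMT5-shRNA 3 was the highest, PRMT5-shRNA 1 lay among the controls and PRMT5-shRNA 2 just above them, and the log2 fold change fell from 0.30 to 0.022 without it.

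MAP1LC3B, which encodes the LC3B protein that is the usual marker of autophagosomes (ENSG00000140941, chromosome 16, 87383995 to 87404779, plus strand), stood apart in a control instead. It was at 54.5, 89.6 and 89.5 CPM with NC-shRNA and 95.6, 93.9 and 96.8 CPM with PRMT5-shRNA. NC-shRNA 1 was -0.79 on the log2 scale from the median of the other 5 libraries, and without it the log2 fold change went from 0.29 to 0.091. GABARAPL2, the remaining member of the family, was at 46.1, 41.9 and 37.0 CPM with NC-shRNA and 37.0, 40.1 and 38.4 CPM with PRMT5-shRNA, with overlapping groups and a log2 fold change of -0.11 (-0.34 to 0.11). The near-identical gene MAP1LC3B2, which can share reads with MAP1LC3B, was at 3.38, 3.40 and 3.41 CPM with NC-shRNA and 2.73, 3.45 and 4.45 CPM with PRMT5-shRNA, even across the controls. The pseudogene MAP1LC3BP1 was at 0 counts in every library, as was AC115676.1, which overlaps GABARAPL1 on the other strand, while FBXO31, which overlaps MAP1LC3B on the other strand, kept to 32.6 to 37.2 CPM.

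The cargo receptors bind ubiquitinated cargo on one side and ATG8 proteins on the other. SQSTM1, the receptor p62, was the most abundant of the autophagosome genes per length, at 63.5 ± 3.47 FPKM in NC-shRNA and 61.9 ± 0.662 FPKM in PRMT5-shRNA cells. Across libraries it was at 617, 568 and 529.7 CPM with NC-shRNA and 534, 543 and 524 CPM with PRMT5-shRNA, with overlapping groups and a log2 fold change of -0.10 (-0.26 to 0.057). OPTN, a receptor for damaged mitochondria, was at 32.3, 41.9 and 41.0 CPM with NC-shRNA and 43.7, 46.3 and 44.2 CPM with PRMT5-shRNA, a log2 fold change of 0.22 (-0.041 to 0.48) in which the lowest library, NC-shRNA 1, was -0.43 from the median of the others. Without that library it was 0.11. NBR1 and TAX1BP1, further ubiquitin-binding receptors, had log2 fold changes of 0.067 and 0.041, and their groups overlapped.

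**Figure D3:**
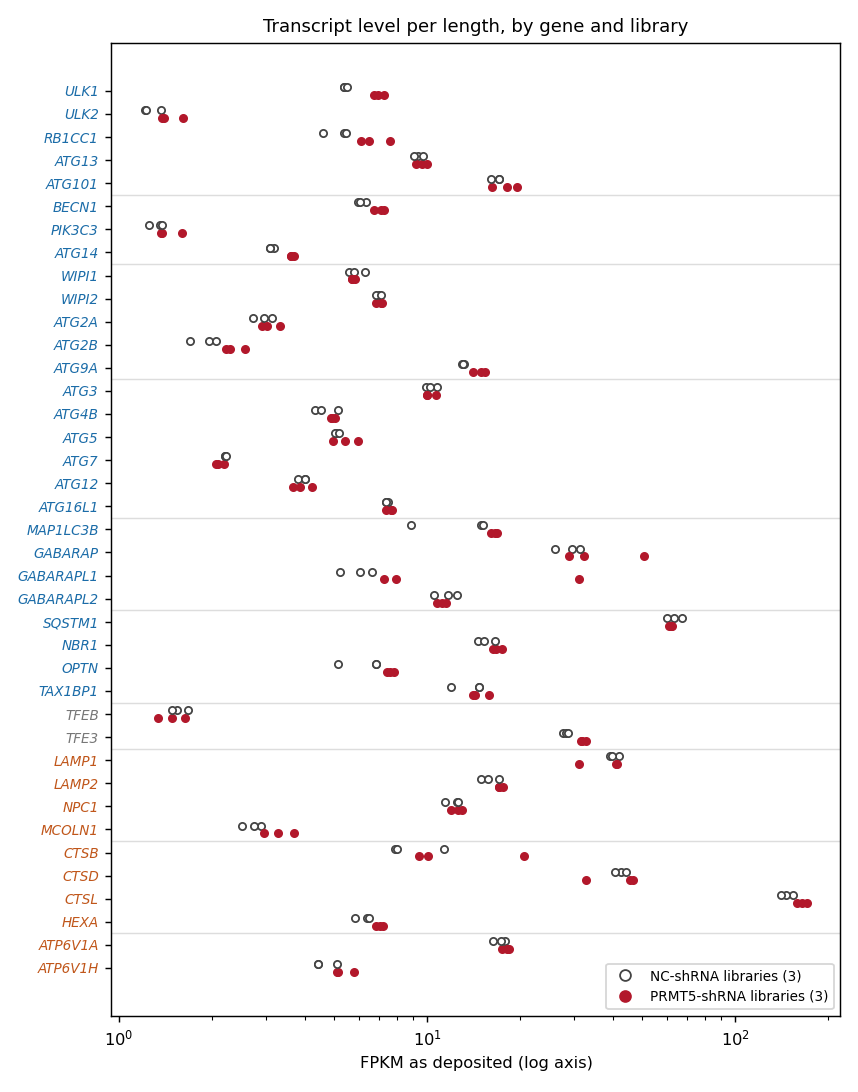
Deposited FPKM of each gene in each of the 6 libraries on a log axis (open points NC-shRNA, red points PRMT5-shRNA), which compares levels between genes per length. CTSL, at 147 ± 6.78 FPKM in NC-shRNA cells, is the highest and ULK2, at 1.27 ± 0.0896 FPKM, the lowest.

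TFEB and TFE3 are related factors that bind E-box sequences in front of lysosomal and autophagy genes, and their activity is set by phosphorylation and location in the cell, which RNA levels do not show. TFE3 (ENSG00000068323, chromosome X, 49028726 to 49043486, minus strand) was at 142, 142 and 141 CPM with NC-shRNA and 157, 153 and 153 CPM with PRMT5-shRNA. Its standard error, 0.0492, was the smallest of the 39, and the 8.97% difference gave a log2 fold change of 0.12 (0.0072 to 0.24, unadjusted p = 0.0403, adjusted p = 0.365, edgeR). This call was lost in DESeq2 (unadjusted p = 0.0720), in edgeR with no filter on low counts (0.0524) and in 5 of 6 edgeR fits that left out 1 library (unadjusted p from 0.0452 to 0.125 over the 6 fits). In 3 fits of limma, another test, on log2 FPKM values it was kept. There the log2 fold change was 0.18 each time (unadjusted p = 0.00589, 0.00607 and 0.00273, limma), and no adjusted p was below 0.187. TFEB was at 10.7, 10.01 and 11.0 CPM with NC-shRNA and 9.69, 10.7 and 8.66 CPM with PRMT5-shRNA, with overlapping groups and a log2 fold change of -0.13 (-0.42 to 0.16). Per length the pair was far apart in level, with 28.2 ± 0.490 FPKM for TFE3 and 1.56 ± 0.0971 FPKM for TFEB in NC-shRNA cells, so TFE3 made up most of their summed transcript.

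Promoter sequences of 33 members, from 250 bases before to 50 bases after the start site, were taken from RefSeq (GRCh38.p14), and ATP6V1A, ATP6V1H, CTSB, HEXA, LAMP2 and RB1CC1 were not matched. The sequences were searched on both strands for CACGTG, the E-box core, which reads the same on either strand, and for the longer TCACGTGA, which contains it. CACGTG was found in 5 of 33 members (15.2%) beside 8.77% of the 27305 promoters of all genes, and TCACGTGA in 3 of 33 (9.09%) beside 1.18%. By arm, CACGTG was found in 2 of 26 autophagosome promoters and 3 of 5 lysosome promoters, and in neither of the factors' own. A match is a description of the letters and not evidence that a factor was bound. 1 match in each of the 5 promoters follows, 5′ to 3′ on the gene's strand, with the E-box core in capitals, because this core is the sequence TFEB and TFE3 are known to bind.
LAMP1 (chr13:113297199-113297228, plus strand): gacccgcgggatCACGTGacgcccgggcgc
MCOLN1 (chr19:7522598-7522627, plus strand): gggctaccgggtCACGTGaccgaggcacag
CTSD (chr11:1763957-1763986, minus strand): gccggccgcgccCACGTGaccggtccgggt
ATG3 (chr3:112561940-112561969, minus strand): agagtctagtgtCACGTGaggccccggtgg
ATG14 (chr14:55411834-55411863, minus strand): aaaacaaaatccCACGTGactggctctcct
LAMP1 had the most copies, 6 in its promoter. The shown matches in LAMP1, MCOLN1 and ATG3 lie within TCACGTGA, and those in CTSD and ATG14 do not. The 5 genes lay on both sides of 0. MCOLN1 and ATG14 had log2 fold changes above 0 (0.23 and 0.17), LAMP1, CTSD and ATG3 had ones below 0 (-0.15, -0.088 and -0.074), and the median was -0.07 over these 5, beside 0.04 over the 28 without the core.

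On the lysosomal membrane, no member was separated between the groups in CPM. LAMP1, the abundant glycoprotein that lines the lysosome, was at 293, 269 and 267 CPM with NC-shRNA and 270.0, 273 and 203 CPM with PRMT5-shRNA. 5 libraries were alike and PRMT5-shRNA 3 was at -0.41 from the median of the others on the log2 scale, the opposite side from GABARAPL1, GABARAP and CTSB in the same library. Its log2 fold change was -0.15 (-0.43 to 0.13), and -0.025 without that library. MCOLN1, the calcium channel of the lysosome, was at 14.0, 11.8 and 12.7 CPM with NC-shRNA and 14.9, 17.0 and 13.4 CPM with PRMT5-shRNA, a log2 fold change of 0.23 (-0.076 to 0.54), the largest on the membrane, with 1 knockdown library inside the range of the controls. It overlaps PNPLA6 on its own strand. LAMP2, the second lining glycoprotein, and NPC1, the cholesterol exporter, had log2 fold changes of 0.061 (-0.079 to 0.20) and -0.018 (-0.16 to 0.12).

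The hydrolases held the most abundant of the 39 genes and one of the most uneven. CTSL, the cysteine protease cathepsin L, had the highest level of all 39 per length, 147 ± 6.78 FPKM in NC-shRNA and 165 ± 6.09 FPKM in PRMT5-shRNA cells. Across libraries it was at 349, 322 and 305 CPM with NC-shRNA and 349.8, 366 and 336 CPM with PRMT5-shRNA, which overlapped by a narrow margin, with a log2 fold change of 0.11 (-0.052 to 0.27, unadjusted p = 0.154, edgeR). With the correction for transcript length it became 0.16 (unadjusted p = 0.0157), and the pseudogene copies of CTSL can share its reads. CTSB, cathepsin B (ENSG00000164733, on chromosome 8), was at 102, 68.5 and 68.1 CPM with NC-shRNA and 78.9, 85.0 and 171 CPM with PRMT5-shRNA. PRMT5-shRNA 3 was 2.17 times the median of the other 5 libraries, NC-shRNA 1 was the second highest, and the log2 fold change of 0.49 (-0.27 to 1.25) became 0.044 without PRMT5-shRNA 3. CTSD, the aspartyl protease cathepsin D, was at 160.0, 163 and 146 CPM with NC-shRNA and 116, 162 and 164 CPM with PRMT5-shRNA, where PRMT5-shRNA 1 was the low library and the log2 fold change was -0.088 (-0.41 to 0.23), and 0.058 without it. HEXA, the alpha subunit of the ganglioside-degrading hexosaminidase, had a log2 fold change of 0.11 (-0.045 to 0.26).

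The V-ATPase pumps protons into the lysosome. ATP6V1A, its catalytic subunit, was at 102, 109 and 104 CPM with NC-shRNA and 102, 107 and 108 CPM with PRMT5-shRNA, overlapping throughout, and the interval of -0.12 to 0.15 around a log2 fold change of 0.013 was among the tightest of the 39. ATP6V1H, a regulatory subunit, was at 27.6, 26.9 and 30.5 CPM with NC-shRNA and 29.8, 30.4 and 33.7 CPM with PRMT5-shRNA, a log2 fold change of 0.14 (-0.071 to 0.36) with 2 knockdown values inside the controls' range.

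Set side by side, both arms had medians close to 0. The median log2 fold change was 0.04 over the 27 autophagosome genes, with 18 above 0 and a range of -0.13 to 1.299, and 0.08 over the 10 lysosome genes, with 7 above 0 and a range of -0.15 to 0.49. Over all genes tested the median was 0.0075 and 51.2% were above 0, and over the 10487 with a mean log2 CPM over 3, a level that all 39 members exceeded, it was -0.015 and 46.7%. The medians over the members of each library, each gene taken against its NC-shRNA mean, overlapped between the groups in both arms. For the autophagosome they were 0.025, -0.012 and -0.0040 in NC-shRNA and -0.015, 0.036 and 0.14 in PRMT5-shRNA, and for the lysosome 0.051, -0.028 and -0.013 against 0.039, 0.080 and 0.061. Members are not replicates of a condition, so no test was made of these medians. Within the autophagosome arm the medians ran from -0.045 for conjugation (6 genes) over 0.014 for the lipid-handling proteins (5) and 0.054 for the cargo receptors (4) to 0.14 for the lipid kinase complex (3), 0.15 for the initiation complex (5) and 0.30 for the ATG8 family (4). The ATG8 value depended on single libraries. MAP1LC3B was at 0.091 without NC-shRNA 1, and GABARAP and GABARAPL1 were at 0.022 and 0.28 without PRMT5-shRNA 3.

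**Figure D4:**
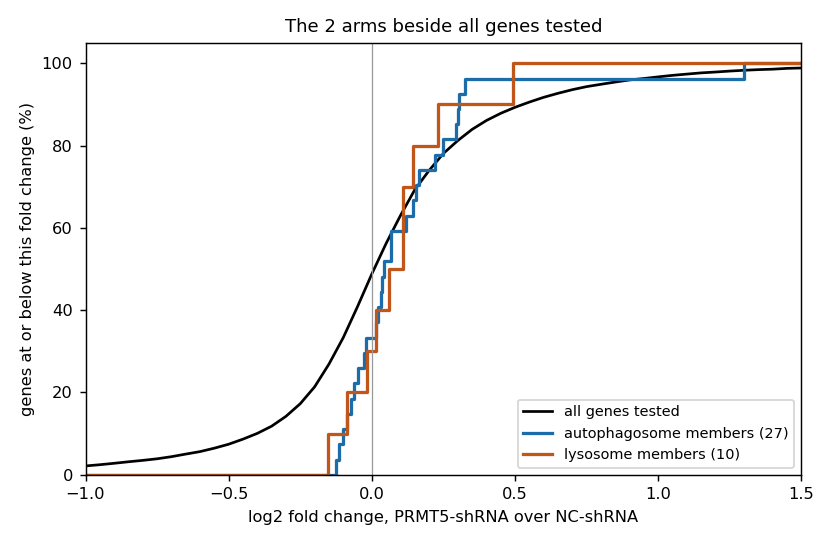
Cumulative share of genes at or below each log2 fold change for the 27 autophagosome genes (blue), the 10 lysosome genes (orange) and all 20295 genes tested (black). Both arms cross the 50% level close to 0, at medians of 0.04 and 0.08, and GABARAPL1 makes the long upper step of the autophagosome line.

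The precision of these statements differed between 2 kinds of member. In 35 of 39 genes the 95% interval lay within 1.5-fold either way, so larger differences in transcript level were outside the interval. The other 4 were MAP1LC3B, GABARAP, GABARAPL1 and CTSB, and these are the 4 genes in which a single library was more than 0.5 from the median of the other 5 on the log2 scale. Of the genes with a mean log2 CPM over 3, 18.3% had such a library, so 4 of 39 (10.3%) was no more than the background, and for a distance over 1 the shares were 5.13% of members (GABARAPL1 and CTSB) and 5.21% of genes. PRMT5-shRNA 3 was the distant library in 3 of the 4, on the high side each time, with GABARAP at 0.68. Among the genes with a mean log2 CPM over 3 it was the distant library, over 1, for 106, beside 75 to 123 in the others. Of these 106 genes, 22 were on the high side and 84 on the low side. Without the 4 genes the median was 0.034 over 24 autophagosome genes and 0.061 over 9 lysosome genes. The cause of the distant values was not tested.

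Fold changes in these libraries were related to transcript length, which touches the long members. Over 10482 genes with a mean log2 CPM over 3 and an annotated length, Spearman's rho between the log2 fold change and the longest transcript was 0.31, and over the 39 members 0.13, both given as descriptions across genes of the same 6 libraries. With a length trend removed in each library, ULK1 was at 0.27 (unadjusted p = 0.00270, edgeR). RB1CC1 was at 0.27 (unadjusted p = 0.0150) and TFE3 at 0.14 (unadjusted p = 0.0183). CTSL thus took the place of ATG2B among the 4 members with an unadjusted p under 0.05.

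**Figure D5:**
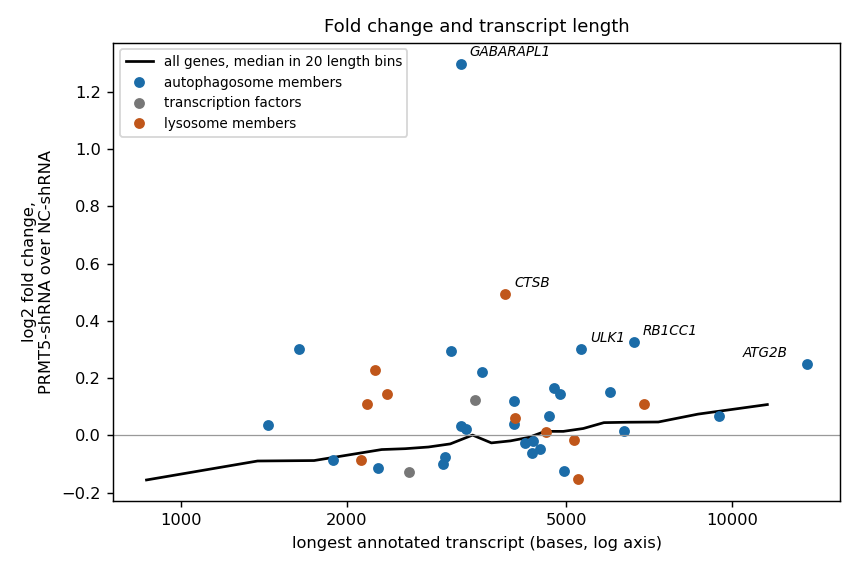
Log2 fold change of each of the 39 genes against its longest annotated transcript (log axis, bases), with the median over all genes in 20 length bins as a black line. The line climbs with length, ATG2B lies at the far right at 13684 bases, and GABARAPL1 and CTSB lie far above the line.

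A wider set of 198 genes of the same pathway, in 5 lists, was then counted, of which 191 could be tested, beside the same background of 6.54% of genes higher and 6.29% lower. In the autophagosome list, 43 of 46 genes were tested, 0 were higher and 1 lower at an unadjusted p under 0.05 (WDR45B, a further phosphoinositide reader, -0.15), and the median was -0.0065. Of 52 lysosomal enzymes tested 5 were higher and 2 lower, with a median of 0.021. The higher ones included GAA (log2 fold change 0.33), MAN2B1 (0.30) and ASAH1 (0.20), which break down glycogen, mannose-rich glycans and ceramide, and the lower ones included PRCP (-0.48), a peptidase.

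Of 37 lysosomal membrane proteins 1 was higher and 3 lower, with a median of 0.0080. LAPTM5 was low in every library, at 57, 73 and 64 estimated counts with NC-shRNA and 110, 188 and 141 with PRMT5-shRNA, with a log2 fold change of 1.29, and CD164 (-0.46), CD63 (-0.28) and MFSD1 (-0.21) were lower. LAPTM5 is known mainly from blood cells. The V-ATPase list (20 of 22 tested) had a median of -0.059, with 2 higher and 1 lower. ATP6V1B2 (0.27) and ATP6AP2 (0.24) were higher and ATP6AP1, an accessory subunit needed for assembly of the pump, was at 133, 127 and 138 CPM with NC-shRNA and 105, 101 and 105 CPM with PRMT5-shRNA, a log2 fold change of -0.35 with a wide gap between the groups.

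The last list held regulators of mTORC1 and of the TFEB family, 39 of 40 tested, with 4 higher, 1 lower and a median of 0.017. SESN2, the leucine sensor that restrains mTORC1 and is induced by stress, was at 35.9, 41.0 and 40.3 CPM with NC-shRNA and 57.0, 55.5 and 53.6 CPM with PRMT5-shRNA, the smallest p of the listed genes (log2 fold change 0.50, unadjusted p = 0.000341, adjusted p = 0.113, edgeR). DEPTOR, an inhibitory subunit of mTOR complexes, was at 192, 183 and 165 estimated counts with NC-shRNA and 201, 314 and 251 with PRMT5-shRNA (log2 fold change 0.62), and PRKAB2, a subunit of AMPK, had 0.26. CASTOR1, the arginine sensor, was at 14, 93 and 54 estimated counts with NC-shRNA and 18, 14 and 13 with PRMT5-shRNA, so its log2 fold change of -1.68 rested on few counts and overlapping groups. In edgeR the adjusted p of all 191 genes tested stayed above 0.05. DESeq2 called PRCP, LAPTM5, CD164, ATP6V1B2, ATP6AP1 and SESN2 among those named here, and it called 1.81% of all genes as higher and 1.36% as lower. The named genes were picked by smallest p in edgeR, so their calls cannot be set beside these shares.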

How the data were processed

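RNA from 3 NC-shRNA and 3 PRMT5-shRNA NCI-H460 libraries was sequenced by the authors (stranded mRNA kit, per the methods). The submitters' processing notes name cutadapt 1.9, HISAT2 2.0.4, StringTie 1.3.4d and GRCh38, while the methods name a mouse assembly. For each gene in each library the authors deposited an estimated count, not normalized, and an FPKM value, normalized for length and library size. How strand and overlapping genes were handled in counting is not given in the sources used here.

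Estimated counts, already whole numbers, were scaled by TMM. Of 58825 genes, 20295 passed filterByExpr by group, and each was tested with edgeR 4.0.16 (R 4.3.3, quasi-likelihood test, unpaired, Benjamini-Hochberg adjustment). Standard errors and 95% intervals follow from the F statistic, and log2 CPM used a prior count of 2. The fits were tested on simulated data. Alternatives were DESeq2 1.42.0 and its size factors, no filter, limma 3.58.1 on log2(FPKM + 1) or log2(FPKM + 0.1) with a minimum mean FPKM of 0.5, a length trend, the replicate number as a block, and fits without 1 library. Positions and lengths came from GENCODE release 29, in which 58552 identifiers were found. The smallest chi-square per degree of freedom between libraries was 38.6, so none was a duplicate.

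The 39 genes and the further lists were chosen with earlier results of these data known. Per-library values are printed for members with an unadjusted p under 0.05, and for the most abundant and the most shifted member of each role, and values for at most 3 genes per direction, by smallest p, of each further list, of which 1 is not reported here. ULK2, ATG2A, WIPI1, MAP1LC3B, GABARAPL2, CTSD and MAP1LC3B2 were added after their values were seen.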

Additional observations from a re-analysis of the deposited data

How the results depend on the processing

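The count of members past an adjusted p of 0.05 was 0 in edgeR and limma under every alternative, and 1 (ULK1, log2 fold change 0.29) in DESeq2, which called 303 genes as higher and 227 as lower. Of the further genes named above, PRCP (-0.49), LAPTM5 (1.28), CD164 (-0.46), ATP6V1B2 (0.26), ATP6AP1 (-0.36) and SESN2 (0.50) also passed in DESeq2. Those named genes had been picked by smallest p in edgeR. Of 2605 genes at an unadjusted p under 0.05 in the reported fit, 10 and 4 passed the adjustment. These became 21 and 12 at an adjusted p under 0.1, 1 higher under limma with no filter, and 7 lower with the length trend. Leaving out each library gave 4 to 16 higher and 3 to 10 lower genes. Members with an unadjusted p under 0.05 numbered 10, 10 and 9 under limma with a pseudocount of 1, of 0.1 and with no filter, 0 with a fold over 1.5 required as well, and 2 to 4 higher and 0 to 1 lower with a library left out. ULK1 and RB1CC1 were among them in each of these fits without the fold. Over all genes the 3 limma fits called 2309 of 14707, 2298 of 14707 and 3085 of 32052 at that threshold, beside 2605 of 20295 in the reported fit. In these limma fits 59.9%, 59.7% and 56.8% of all genes were above 0, beside 51.2% in the reported fit. With a library left out, 1963 to 2854 genes were called, of 20856 to 21288 tested. The 2 members below in every library became 1 in FPKM and 1 with the length trend, settings chosen after seeing the data. The shares of all genes below were 6.59% and 9.66% there, and 10.7% in the reported scale. With a library left out the count was 2 to 5. Groups with fewer libraries separate more readily, so that count cannot be set beside the 2.

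The lysosome median was 0.13, 0.15 and 0.13 in the 3 limma fits, 0.012 with the further genes added and 0.047 to 0.081 with a library left out, and the autophagosome median 0.10 with a pseudocount of 0.1. The median over all genes was also higher in the 3 limma fits, at 0.039, 0.050 and 0.013, beside 0.0075 in the reported fit. In the fits with a replicate block TFE3 had an unadjusted p of 0.0718 (edgeR), and 0 genes passed in either direction, with 2382 at an unadjusted p under 0.05, and 2363 with the length trend as well, where again 0 and 0 passed. PRMT5 then had a log2 fold change of -1.62 (adjusted p = 0.144, edgeR) and -1.59 (0.0997). The numbers did not pair the libraries, since deviations of same-numbered libraries correlated at 0.0012, -0.039 and 0.064, and 2 of 6 libraries correlated best with their own number.

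Members close to 0 changed sign. In the limma fits ATG13 was at 0.035, 0.038 and 0.035, WIPI2 at 0.0096, 0.011 and 0.0096, ATG16L1 at 0.028, 0.032 and 0.028 and NPC1 at 0.039, 0.041 and 0.039. The medians over all genes in these fits were 0.039, 0.050 and 0.013. With the length trend PIK3C3 was at -0.030 and ATG2A at -0.034, and with the block as well at -0.032 and -0.037. With a library left out, ATG13 ran from -0.045 to 0.0097, ATG101 from -0.026 to 0.11, PIK3C3 from -0.0028 to 0.11, ATG2A from -0.051 to 0.058, ATG4B from -0.034 to 0.12, ATG5 from -0.035 to 0.096, TAX1BP1 from -0.038 to 0.089, NPC1 from -0.044 to 0.017, CTSD from -0.17 to 0.058 and ATP6V1A from -0.0068 to 0.039. The cause of these changes was not tested. With 3 libraries a group, members whose interval includes 0 are not shown to be equal between the groups.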

Other observations

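Among the 198 further genes, several had 1 library far from the rest. STX17, the SNARE protein that lets the autophagosome fuse with the lysosome, was at 1016, 582 and 481 estimated counts with NC-shRNA and 448, 1943 and 1207 with PRMT5-shRNA, so both groups were widely spread and overlapped (log2 fold change 0.87, unadjusted p = 0.101, edgeR). TMEM41B, a scramblase of the endoplasmic reticulum, was at 1154, 1134 and 2376 estimated counts with NC-shRNA and 829, 1200 and 846 with PRMT5-shRNA, with NC-shRNA 3 as the high library. STBD1, a receptor for glycogen, was -2.66 on the log2 scale from the median of the other libraries in NC-shRNA 2, and DRAM1, a lysosomal membrane protein of the p53 response, 1.35 in PRMT5-shRNA 3. In the lysosome, PLA2G15, a phospholipase, was -1.66 in NC-shRNA 3, SCARB2, the carrier of glucocerebrosidase, -1.18 in NC-shRNA 1, PPT1, a thioesterase, 1.04 in NC-shRNA 1, and LAMTOR3, a scaffold of mTORC1 on the lysosome, -1.10 in PRMT5-shRNA 3. The distant library was not the same in these genes. They were chosen after their values were seen, and what set these libraries apart was not tested.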
